A study of Mus musculus with 6 samples.

Results

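The transcripts of 9 genes of bone morphogenetic protein (BMP) signalling were followed in Rtcb knock-out and wild-type mouse oocytes. They are Id1, Id2, Id3 and Id4, which encode inhibitors of DNA binding, and Smad1, Smad4, Smad5, Smad6 and Smad7, which encode signal transducers. They were taken as the rows of the deposited table with exactly these symbols, all 9 of which are among its 23235 gene rows. The set was chosen by pathway role, with the measured FPKM of these 6 libraries and its difference between the genotypes already known, so that difference is given for the 9 genes as a description, with no test.

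The oocytes were fully-grown germinal vesicle (GV) oocytes, which are arrested in meiotic prophase, from C57BL/6 mice. There were 3 libraries labelled Rtcb knock-out (Rtcb KO) and 3 labelled wild type (WT), and all 6 came from females primed with the gonadotropin PMSG for 44 to 48 h. Each library pooled 10 oocytes, so it holds no value of a single oocyte. The labels do not name the promoter or Cre line behind the knock-out, nor tie each library to an animal of its own, and p-values therefore rest only on how these libraries vary, part of which may be technical. Sample titles carry the tag 6W, and no other age is given. RTCB is the catalytic subunit of the tRNA ligase complex, which also rejoins Xbp1 mRNA after its cleavage in the unfolded protein response.

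BMP ligands bind pairs of type I and type II receptor kinases, which phosphorylate the receptor-regulated Smads SMAD1 and SMAD5. These join the common partner SMAD4, enter the nucleus and switch on target genes, among which the Id genes respond quickly in many cell types. SMAD6 and SMAD7, the inhibitory Smads, damp the signal and are themselves induced by it. ID proteins have a helix-loop-helix but no DNA-binding region, so they pair with basic helix-loop-helix (bHLH) factors, the E proteins above all, and keep them off DNA. Oocytes make the ligands BMP15 and GDF9, which act on the granulosa cells around them.

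Values are FPKM, a read-pair count scaled to transcript length and library depth, which the authors further normalized to ERCC spike-in RNA. The unit is per transcript length, so levels of different genes can be compared, but only roughly, since the annotation behind those lengths was not given. Fold changes marked log2 were computed on log2(FPKM + 1), where changes of genes at low levels come out too small, and folds called ratios are ratios of mean FPKM. Read depth per library is unknown. Transcripts of the knocked-out gene, which the table lists as D10Wsu52e, were at 2.49 to 3.82 FPKM in the Rtcb KO libraries and at 113 to 136 FPKM in the WT libraries. The 3 WT columns share a common factor and the 3 Rtcb KO columns another, at an Rtcb KO to WT ratio of 0.667. Results are therefore also given with both factors removed. Of 12029 genes that averaged 1 FPKM or more over the 6 libraries, 1118 were higher and 6501 lower in Rtcb KO (limma adjusted p under 0.05), and the median log2 fold change was -0.47. With the factors removed 3123 were higher and 2149 lower, and the median was 0.050. Rescaling to equal totals called 19.2% higher and 25.7% lower, and median-ratio rescaling 23.1% and 21.5%. In pooled oocytes, fewer cells of a type and less RNA per cell cannot be told apart.

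Id1, Id2 and Id3 stood higher in every Rtcb KO library than in any WT library, while Id4 was under 0.5 FPKM in all 6. Id3 had 224, 96.3 and 153 FPKM in Rtcb KO oocytes, against 12.5, 12.3 and 6.60 FPKM in WT oocytes. The lowest Rtcb KO library was thus far above the highest WT library. Mean Id3 was 158 ± 64.1 FPKM in Rtcb KO and 10.5 ± 3.35 FPKM in WT (SD, n = 3 each), a ratio of 15.1 and a log2 fold change of 3.76 (SE 0.328). Leaving out single libraries moved the ratio between 11.9 (without KO 1) and 18.0 (without KO 2). In Rtcb KO oocytes Id3 stood above 89.9% of the tested genes, and in WT oocytes above 38.4%.

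Id2 had 67.7, 60.2 and 81.6 FPKM in Rtcb KO oocytes, against 9.33, 10.2 and 8.76 FPKM in WT oocytes. Its libraries agreed more closely than those of Id3, with a coefficient of variation of 15.5% in Rtcb KO and 7.80% in WT. The means were 69.8 ± 10.8 FPKM in Rtcb KO and 9.44 ± 0.736 FPKM in WT, a ratio of 7.40 (log2 fold change 2.75, SE 0.137). Without single libraries the ratio lay between 6.78 and 7.91. Id2 stood above 80.6% of the tested genes in Rtcb KO and above 36.4% in WT.

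Id1 had 9.59, 5.44 and 14.1 FPKM in Rtcb KO oocytes, against 3.27, 1.84 and 3.40 FPKM in WT oocytes. The groups did not overlap, but the Rtcb KO libraries spread 2.59-fold among themselves. Means were 9.72 ± 4.34 FPKM in Rtcb KO and 2.84 ± 0.869 FPKM in WT, a ratio of 3.42 (log2 fold change 1.42, SE 0.319). The ratio ranged from 2.65 (without KO 3) to 4.18 (without KO 2).

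Id4 had 0.325, 0.348 and 0.303 FPKM in Rtcb KO oocytes, against 0.207, 0.179 and 0.459 FPKM in WT oocytes. The Rtcb KO values lay inside the WT range. Summed over the 4 genes, Id transcripts reached 302, 162 and 249 FPKM in Rtcb KO and 25.3, 24.6 and 19.2 FPKM in WT, so the family sum was 10.3 times the WT level. Id3 made up 74.3%, 59.3% and 61.5% of that sum in the Rtcb KO libraries, against 49.4%, 50.2% and 34.3% in the WT libraries. These shares are ratios within a library, on which no scaling acts.

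**Figure D1:**
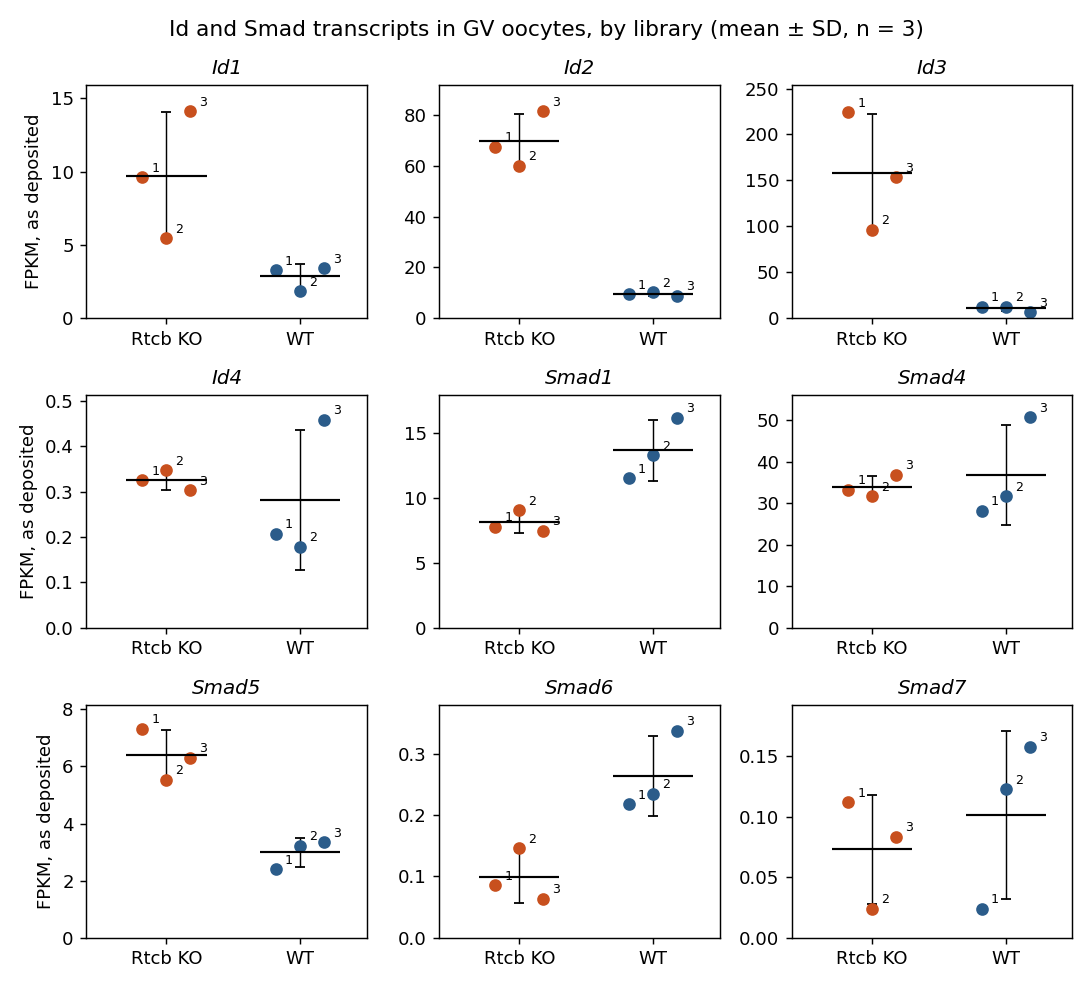
FPKM as deposited (vertical axes, from 0) of the 9 Id and Smad genes in 3 Rtcb KO libraries (orange, left) and 3 WT libraries (blue, right). Points carry the library's number, horizontal lines are means and error bars are SD. Id1, Id2, Id3 and Smad5 have every Rtcb KO library above every WT library, Smad1 and Smad6 have them below, and Id4, Smad4 and Smad7 overlap.

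The 3 Rtcb KO libraries did not rank alike. KO 2 was the lowest of them for Id1, Id2, Id3 and Smad5. KO 1 was the highest for Id3 and Smad5, and KO 3 the highest for Id1 and Id2. The ratio of Id3 to Id2 was 3.31, 1.60 and 1.88 in Rtcb KO and 1.34, 1.21 and 0.754 in WT, so Id3 was the more abundant of the pair in 3 of 3 Rtcb KO and 2 of 3 WT libraries.

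The promoters of Id2 and Id3 are shown because these were the genes that stood highest in Rtcb KO, and that of Id4 as the family member that stayed near 0. They are the 250 bases before the RefSeq start, read 5′ to 3′ on the gene's strand from build GRCm38.p6, not the build of the expression values. Capitals mark GGCGCC, a GC-rich motif bound by BMP-activated Smads, and CAGAC or its complement GTCTG, the Smad box. They lie at chr12:25096093-25096342 (minus strand) for Id2, chr4:136143572-136143821 (plus strand) for Id3 and chr13:48260866-48261115 (plus strand) for Id4.
Id2: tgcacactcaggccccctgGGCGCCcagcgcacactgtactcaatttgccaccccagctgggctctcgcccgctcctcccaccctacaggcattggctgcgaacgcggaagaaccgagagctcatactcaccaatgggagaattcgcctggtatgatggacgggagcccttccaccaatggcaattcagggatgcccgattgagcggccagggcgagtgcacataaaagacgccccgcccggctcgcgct
Id3: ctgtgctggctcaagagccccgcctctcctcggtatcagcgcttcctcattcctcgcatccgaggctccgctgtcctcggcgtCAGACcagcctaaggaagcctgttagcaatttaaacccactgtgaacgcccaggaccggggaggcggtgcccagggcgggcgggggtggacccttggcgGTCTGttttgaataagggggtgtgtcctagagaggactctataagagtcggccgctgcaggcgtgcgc
Id4: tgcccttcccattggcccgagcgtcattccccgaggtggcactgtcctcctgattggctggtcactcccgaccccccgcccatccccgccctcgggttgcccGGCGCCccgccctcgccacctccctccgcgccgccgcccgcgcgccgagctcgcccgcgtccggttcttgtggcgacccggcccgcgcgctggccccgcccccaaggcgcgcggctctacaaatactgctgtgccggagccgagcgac

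Id2 and Id4 each held 1 GGCGCC, starting at position -231 and -148 from the start, and Id3 held none. Id3 held 2 Smad boxes, starting at -167 and -68, and Id2 and Id4 held none. On either strand GGCGCC occurred in 9.59% of the 32851 RefSeq windows of these 250 bases, and the Smad box in 42.2%, with 2 or more in 11.7%. In windows of 300 bases, GGCGCC was in 20.2% of the 10804 promoters of tested genes and in 11.9% of all promoters, and the Smad box in 46.6% and 49.6%. GGCGCC was present in Id2, high in Rtcb KO, and in Id4, near 0 in both genotypes. Smad5, also higher in Rtcb KO, has several RefSeq promoters, searched over 300 bases. Promoter 1 held GGCGCC at 24 to 29, promoter 2 held it at -19 to -14, and promoter 3 held a Smad box at -21 to -17. Smad1, lower in Rtcb KO as deposited, held neither motif, and nor did Smad6. Whether a motif goes with the difference between the genotypes was not tested. Base composition was alike for Id2 and Id3, at 62.8% G and C each, and 75.6% for Id4. Promoters of 6 of the 9 genes were searched for motifs. Those of Id1, Smad4 and Smad7 were not searched, so nothing is known here of motifs in them.

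The palindromic Smad-binding element GTCTAGAC was found in 1 of the 6, Smad6, where it spans the start of the gene from position -4 to 4. It is shown in capitals with 11 bases on each side, at chr9:64022045-64022074 (minus strand, GRCm38.p6).
Smad6: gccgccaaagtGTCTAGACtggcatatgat
Of all 32851 windows of 300 bases, 250 before and 50 after the start, 70 held this element on either strand (0.213%, and 0.222% of those of tested genes). The 3 motifs do not overlap here. A match is a run of letters and does not show that a Smad binds there.

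By GENCODE vM21 gene models, the Id genes have few exons and short coding regions, while transcript length runs from 934 bases for Id1 to 3849 bases for Id4, against a median of 2863 bases. Id1 has 2 exons, Id3 and Id4 have 3 each and Id2 has 4, where the median tested gene with a model has 9. Their coding lengths run from 357 bases (Id3) to 483 bases (Id4), against a median of 1353 bases, which puts all 4 at or below the percentile of 8.60 among those genes. Id4 differs from its relatives in its 3′ untranslated region of 3096 bases with 9 ATTTA pentamers, a motif of unstable mRNAs. Id1 and Id3 have 400 and 539 bases there and no ATTTA, and Id2 has 788 bases with 3, while 65.9% of the tested genes hold at least 1. The Smad genes have 4 to 12 exons and coding lengths from 1278 to 1653 bases.

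Smad1 and Smad5, the receptor-regulated Smads of the BMP branch, had fold changes of opposite sign. Smad1 had 7.80, 9.06 and 7.50 FPKM in Rtcb KO oocytes, against 11.6, 13.3 and 16.2 FPKM in WT oocytes. Every Rtcb KO library lay below every WT library, with means of 8.12 ± 0.826 FPKM in Rtcb KO and 13.7 ± 2.34 FPKM in WT, a ratio of 0.593 (log2 fold change -0.68, SE 0.157). With equal totals the log2 fold change of Smad1 was -0.29 and the groups still did not overlap. It was -0.21 with median-ratio rescaling and -0.15 with the genotype factors removed, and the groups overlapped under both.

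Smad5 had 7.32, 5.54 and 6.31 FPKM in Rtcb KO oocytes, against 2.40, 3.22 and 3.35 FPKM in WT oocytes. The groups did not overlap, and the means were 6.39 ± 0.892 FPKM in Rtcb KO and 2.99 ± 0.516 FPKM in WT, a ratio of 2.14 (log2 fold change 0.89, SE 0.168). With the factors removed its ratio was 3.21.

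The ratio of Smad5 to Smad1 within a library does not depend on scaling. It was 0.938, 0.612 and 0.842 in Rtcb KO oocytes, against 0.208, 0.242 and 0.207 in WT oocytes. Smad1 thus exceeded Smad5 in all 6 libraries, by less in every Rtcb KO library. Summed, Smad1 and Smad5 came to 14.5 ± 0.659 FPKM in Rtcb KO and 16.7 ± 2.80 FPKM in WT, with overlapping libraries.

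Smad4, the common partner of all receptor-regulated Smads, had 33.2, 31.7 and 36.9 FPKM in Rtcb KO oocytes, against 28.2, 31.7 and 50.7 FPKM in WT oocytes. The Rtcb KO libraries lay within the WT range, which the library WT 3 stretched upward. The means were 33.9 ± 2.64 FPKM in Rtcb KO and 36.9 ± 12.1 FPKM in WT (log2 fold change -0.07, SE 0.205). The sign turned with the factors removed (0.50), with equal totals (0.35), with median-ratio rescaling (0.43) and without WT 3 (0.17). Smad1 relative to Smad4 was 0.235, 0.285 and 0.203 in Rtcb KO and 0.410, 0.419 and 0.319 in WT. Smad5 relative to Smad4 was 0.220, 0.175 and 0.171 in Rtcb KO and 0.0850, 0.101 and 0.0662 in WT, so neither ratio overlapped between the genotypes.

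The inhibitory Smads were close to 0 in both genotypes. Smad6 had 0.0855, 0.146 and 0.0639 FPKM in Rtcb KO oocytes, against 0.218, 0.235 and 0.338 FPKM in WT oocytes. Its Rtcb KO libraries were all the lower ones as deposited, with equal totals and with median-ratio rescaling. With the factors removed the groups overlapped. Smad7 had 0.112, 0.0239 and 0.0834 FPKM in Rtcb KO oocytes, against 0.0238, 0.123 and 0.158 FPKM in WT oocytes, and the groups overlapped. Id4, Smad6 and Smad7 had a mean under 1 FPKM and were not among the genes tested, and the other 6 of the 9 were. At such levels, with unknown depth, no ratio of means is given for these 3.

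By level, the order in Rtcb KO oocytes was Id3, Id2, Smad4, Id1, Smad1, Smad5, Id4, Smad6 and Smad7. In WT oocytes it was Smad4, Smad1, Id3, Id2, Smad5, Id1, Id4, Smad6 and Smad7. Neighbours whose libraries overlapped in Rtcb KO were Id1 with Smad1, and Smad6 with Smad7. In WT they were Smad1 with Id3, Id3 with Id2, Smad5 with Id1, Id4 with Smad6, but not Smad6 with Smad7.

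As deposited, 4 of the 9 genes had every Rtcb KO library above every WT library, where 10.2% of all tested genes did. Another 2 had every Rtcb KO library below, where 57.5% of tested genes did. With the factors removed the counts were 4 and 0, beside 32.0% and 24.5% of tested genes. They were 4 and 2 with equal totals, beside 23.7% and 33.3%, and 4 and 1 with median-ratio rescaling, beside 28.1% and 28.6%. Since the 9 genes were picked with these values known, nothing is read from the counts. Relative to the median of all tested genes, the log2 fold changes of Id1, Id2, Id3 and Smad5 were 1.89, 3.22, 4.23 and 1.36 as deposited. Under the factor-removed scaling they were 1.85, 3.25, 4.26 and 1.31, close to the same values.

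**Figure D2:**
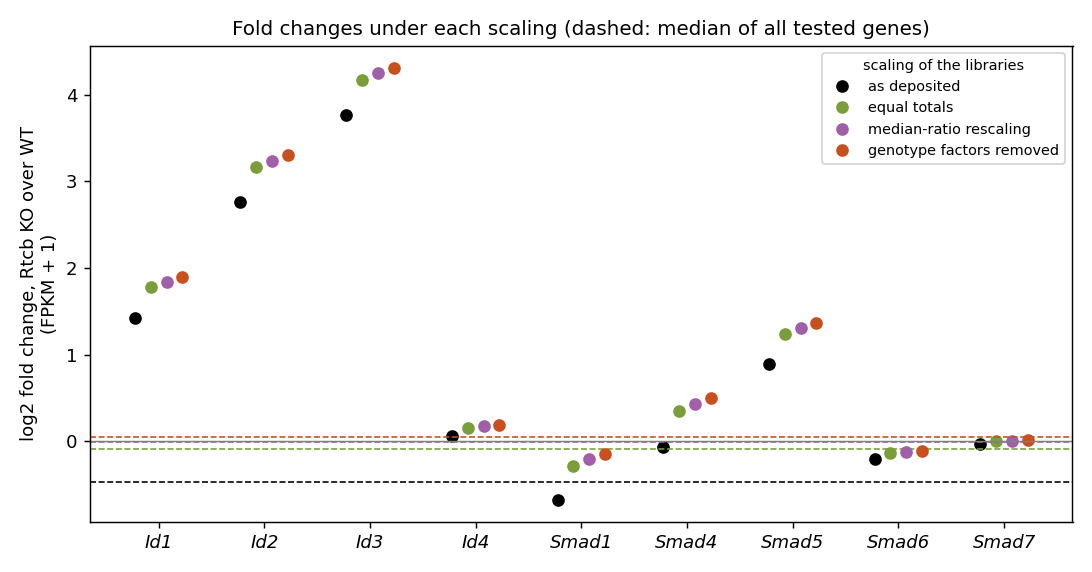
Log2 fold change of Rtcb KO over WT on the log2(FPKM + 1) scale (vertical axis) for the 9 genes under 4 scalings of the libraries (colours), with the median of all tested genes under each scaling as a dashed line of that colour. Id1, Id2, Id3 and Smad5 lie above 0.8 under each of the 4, Smad1 lies between -0.68 and -0.15, and Smad4 changes sign.

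Over the 6 libraries, the genes whose log2(FPKM + 1) values ran most like those of Id3 were Mrps26, Pdcd10, Polr1c, Dnajb9 and Stk16, with Pearson correlations from 0.996 to 0.998 among 10522 genes searched. Dnajb9 had 51.7, 35.6 and 46.3 FPKM in Rtcb KO oocytes and 13.9, 14.0 and 12.1 FPKM in WT oocytes. Id2 correlated with Id3 at 0.98 and Id1 at 0.87. Smad1, whose log2 fold change was the most negative of the 9 with a pseudocount of 1 (with 0.1 it was -0.74, and that of Smad6 -0.88), ran most like Gipc2, Shoc2, Cyb5, Bzw2 and Ssb (0.997 to 0.999). Gipc2 had 63.7, 75.2 and 60.4 FPKM in Rtcb KO and 105, 127 and 157 FPKM in WT. The 6 points share the gap between the genotypes and the genotype factors, so each correlation is a description and carries no p.

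The rest of the pathway was compared between the genotypes to see which steps around the Smads differed. Of 117 listed ligands, receptors, antagonists, Smads, regulators and targets outside the 9 genes, 61 were tested, 8 rose and 28 fell (limma adjusted p under 0.05). These are 13.1% and 45.9% of the tested pathway genes, beside 9.29% and 54.0% of all tested genes, and the median log2 fold change was -0.37 beside -0.47. Without the genotype factors 20 rose and 10 fell of 60 tested, beside 26.0% and 17.9% of all tested genes. With equal totals 16 rose and 15 fell of 61 tested, beside 19.2% and 25.7%. The count of rises as deposited was 5 without KO 1 and 5 without KO 3.

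Of 25 listed ligand genes 7 were tested, and as deposited 0 rose and 5 fell (limma), where 9.29% of all tested genes rose and 54.0% fell, with a median log2 fold change of -0.82 beside -0.47 for all tested genes. Gdf9, the oocyte factor that drives cumulus expansion, had 4115, 3055 and 3685 FPKM in Rtcb KO oocytes, against 8387, 7365 and 5515 FPKM in WT oocytes (log2 fold change -0.96, adjusted p = 0.00195). Bmp15, its partner on the X chromosome, had 1196, 868 and 969 FPKM in Rtcb KO, against 2326, 1868 and 1429 FPKM in WT (-0.87, adjusted p = 0.00441). Bmp6, a ligand of the BMP branch, fell to 27.1 ± 3.69 FPKM in Rtcb KO, against 51.6 ± 4.59 FPKM in WT, and Tgfb2 to 137 ± 15.4 FPKM in Rtcb KO, against 241 ± 7.65 FPKM in WT. Once the genotype factors were removed all 5 calls were lost, with adjusted p of 0.116 for Gdf9, 0.240 for Bmp15, 0.0668 for Bmp6, 0.0924 for Tgfb2 and 0.342 for Tgfb3. In that scaling Bmp5, at 71.7 ± 3.72 FPKM in Rtcb KO and 71.6 ± 14.4 FPKM in WT as deposited, was called higher (adjusted p = 0.0152). With equal totals 0 of the 7 tested ligand genes rose and 2 fell, Bmp6 and Tgfb2, beside 19.2% and 25.7% of all tested genes. Bmp6 was also called lower with median-ratio rescaling (limma adjusted p = 0.04). Tgfb3 and Bmp5 were named after their values were seen.

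Of 10 tested receptor and co-receptor genes, 1 rose, 2 fell and 7 did not pass the test as deposited (limma), where 9.29% of all tested genes rose and 54.0% fell. Bmpr1b, a type I BMP receptor, had 36.6, 36.7 and 36.7 FPKM in Rtcb KO oocytes, against 68.9, 67.7 and 68.5 FPKM in WT oocytes (log2 fold change -0.88, adjusted p = 0.000178; -0.31, adjusted p = 0.0213 with the factors removed). Acvr1, another type I receptor, fell to 3.57 ± 0.574 FPKM in Rtcb KO, against 6.13 ± 1.04 FPKM in WT (adjusted p = 0.0127, and 0.483 with the factors removed). The rise was that of Acvr2a, an activin type II receptor named after its values were seen, at 6.32, 3.37 and 5.15 FPKM in Rtcb KO and 2.74, 2.82 and 2.32 FPKM in WT (adjusted p = 0.0213, lost without KO 1, KO 3 or WT 3 and at most 0.0743). Rgmb, a BMP co-receptor, was at 66.9 ± 13.6 FPKM in Rtcb KO and 49.9 ± 6.07 FPKM in WT (adjusted p = 0.0668), and Bmpr2 at 15.8 ± 0.906 FPKM in Rtcb KO and 15.0 ± 0.538 FPKM in WT (adjusted p = 0.616). When the factors were removed 5 of the 10 receptor genes rose, Bmpr2, Rgmb and Acvr2a among them, and 1 fell. In that scaling 26.0% of all tested genes rose and 17.9% fell.

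Of 4 tested extracellular antagonists, 1 rose and 2 fell (25% and 50%, beside 9.29% and 54.0% of all tested genes). Twsg1, which binds BMPs together with chordin, rose to 13.8 ± 3.17 FPKM in Rtcb KO, against 4.58 ± 0.48 FPKM in WT (log2 fold change 1.39, limma adjusted p = 0.000397). Fstl1, a follistatin-like protein, fell to 0.993 ± 0.171 FPKM in Rtcb KO, against 4.42 ± 0.371 FPKM in WT (-1.44, adjusted p = 0.000218). Both calls held with the factors removed and with equal totals. Dand5, a Nodal and BMP antagonist, fell as deposited to 53.0 ± 2.61 FPKM in Rtcb KO, against 73.4 ± 3.20 FPKM in WT, and turned to a log2 fold change of 0.11 with the factors removed (adjusted p = 0.331).

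**Figure D3:**
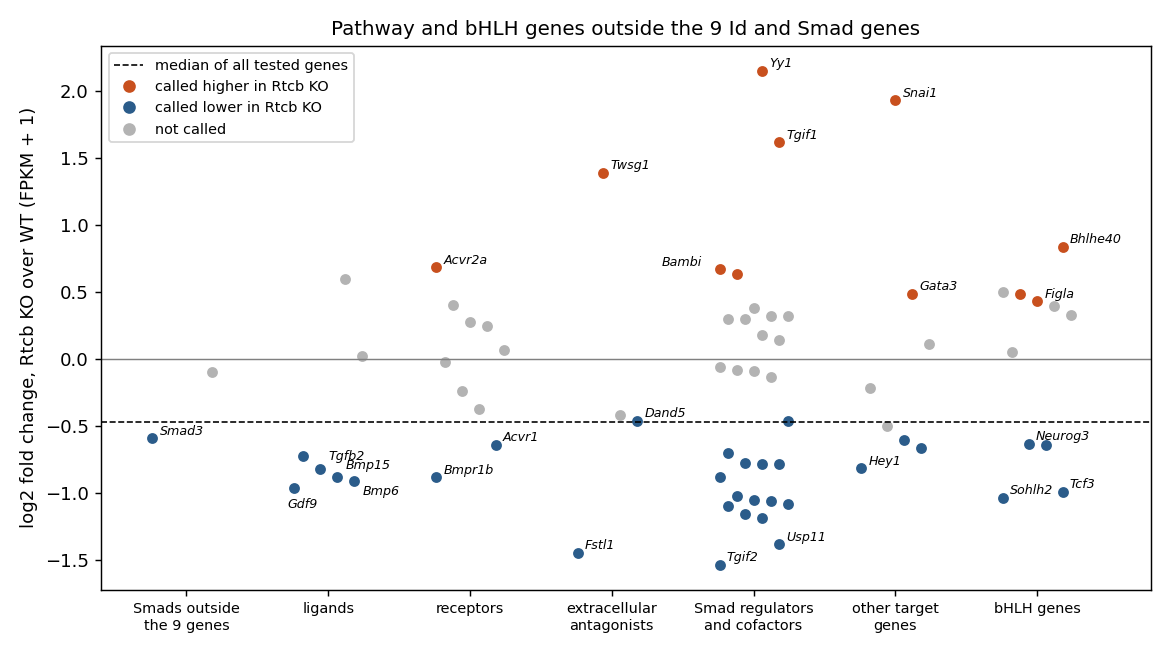
Log2 fold change of Rtcb KO over WT on the log2(FPKM + 1) scale (vertical axis) for tested pathway and bHLH genes, 1 point per gene, in columns by role. Orange points were called higher in Rtcb KO, blue points lower and grey points not called by limma at an adjusted p under 0.05, and the dashed line is the median of all tested genes at -0.47. Yy1, Snai1, Tgif1 and Twsg1 stand above 1.3, and ligands have no orange point.

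Among the other Smads, Smad3, of the activin and TGF-beta branch, fell as deposited to 32.0 ± 3.21 FPKM in Rtcb KO, against 48.9 ± 7.39 FPKM in WT (limma adjusted p = 0.00592, and 0.922 with the factors removed). Smad2, of the same branch, was at 21.4 ± 1.59 FPKM in Rtcb KO and 22.9 ± 0.904 FPKM in WT (adjusted p = 0.451). Without the factors Smad2 was called higher (0.46, adjusted p = 0.0120). Smad9 had a mean under 1 FPKM and was not tested.

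Of 30 tested Smad regulators and cofactors, 4 rose and 15 fell as deposited (13.3% and 50%, beside 9.29% and 54.0% of all tested genes). Without the factors 10 rose and 8 fell, beside 26.0% and 17.9%. The transcriptional co-repressors Tgif1 and Tgif2, which bind Smads, differed in opposite directions. Tgif1 had 35.7, 23.3 and 21.9 FPKM in Rtcb KO oocytes, against 9.50, 7.63 and 6.82 FPKM in WT oocytes (log2 fold change 1.62, limma adjusted p = 0.000392). Tgif2 had 11.4, 13.7 and 13.0 FPKM in Rtcb KO oocytes, against 43.5, 35.1 and 37.8 FPKM in WT oocytes (-1.53, adjusted p = 0.000162). Neither gene's groups overlapped, and both calls held with the factors removed.

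Yy1, a zinc finger factor that can bind Smads, rose to 15.6 ± 5.90 FPKM in Rtcb KO, against 2.56 ± 0.426 FPKM in WT (ratio 6.07, limma adjusted p = 0.000432). Bambi, a pseudo-receptor induced by BMP signalling and named after its values were seen, had 1.76 to 2.54 FPKM in Rtcb KO and 0.746 to 1.35 FPKM in WT (adjusted p = 0.0141, and 0.0536 without KO 3). The fourth rise was that of Ctdsp2, a phosphatase, whose groups overlapped as deposited (8.44 ± 2.24 FPKM in Rtcb KO and 5.04 ± 1.27 FPKM in WT, adjusted p = 0.0419, lost without KO 1, KO 3, WT 1 or WT 2 and at most 0.139). It too was named after its values were seen.

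Usp11 and Usp15 encode deubiquitinases that act on the pathway. Usp11 fell to 7.16 ± 0.184 FPKM in Rtcb KO, against 20.5 ± 4.35 FPKM in WT, and Usp15 to 83.0 ± 9.59 FPKM in Rtcb KO, against 177 ± 21.8 FPKM in WT (limma adjusted p = 0.000285 each). Adjusted p with the factors removed was 0.00478 for Usp11 and 0.0144 for Usp15. The SUMO ligase gene Pias4 fell to 94.1 ± 12.9 FPKM in Rtcb KO, against 163 ± 29.1 FPKM in WT, and the co-repressor gene Ski to 85.3 ± 11.6 FPKM in Rtcb KO, against 117 ± 9.23 FPKM in WT. Neither was called with the factors removed, where the log2 fold change of Ski was 0.12.

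Other BMP or TGF-beta target genes had 2 rises and 3 falls among 8 tested (25% and 37.5%, beside 9.29% and 54.0% of all tested genes). Snai1, a zinc finger repressor of epithelial genes, had 105, 44.9 and 69.8 FPKM in Rtcb KO oocytes, against 20.4, 18.3 and 14.1 FPKM in WT oocytes (log2 fold change 1.93, limma adjusted p = 0.000715). Like Id3, it was highest in KO 1 and lowest in KO 2 among the Rtcb KO libraries. Gata3, a zinc finger factor, had 38.0, 25.6 and 36.7 FPKM in Rtcb KO and 23.0, 25.1 and 21.6 FPKM in WT (adjusted p = 0.0295, lost without KO 1, KO 3, WT 1 or WT 3 and at most 0.102). Hey1, a bHLH repressor, fell to 5.73 ± 0.619 FPKM in Rtcb KO, against 10.8 ± 0.867 FPKM in WT (adjusted p = 0.00147, and 0.122 with the factors removed). The other 2 falls were those of Junb (adjusted p = 0.0126) and Tbx3 (0.0261, lost without KO 1, KO 2 or WT 1), named after their values were seen, and neither was called with the factors removed. Msx1, Msx2, Dlx5 and Atoh8, which respond to BMP in other tissues, had means under 1 FPKM.

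ID proteins act by pairing with bHLH factors, so these were counted too. Of 29 listed, 11 were tested, and 3 rose and 4 fell as deposited (27.3% and 36.4%, beside 9.29% and 54.0% of all tested genes). With the factors removed 7 rose and 1 fell, beside 26.0% and 17.9% of all tested genes. Tcf3, which encodes the E proteins E12 and E47, had 12.2, 10.3 and 14.1 FPKM in Rtcb KO oocytes, against 30.0, 27.0 and 19.2 FPKM in WT oocytes (log2 fold change -0.99, limma adjusted p = 0.00242, and 0.0933 with the factors removed). The other E protein genes, named after their values were seen, lay the other way. Tcf12 was at 8.39 ± 1.55 FPKM in Rtcb KO and 5.65 ± 1.19 FPKM in WT (adjusted p = 0.0518), and Tcf4 at 1.47 ± 0.258 FPKM in Rtcb KO and 0.876 ± 0.203 FPKM in WT (adjusted p = 0.0705). Removal of the factors made both higher (adjusted p = 0.00513 for Tcf12 and 0.0128 for Tcf4).

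Figla, the oocyte bHLH factor that pairs with an E protein to switch on zona pellucida genes, had 174, 174 and 165 FPKM in Rtcb KO oocytes, against 113, 140 and 129 FPKM in WT oocytes (log2 fold change 0.43, limma adjusted p = 0.00626). Bhlhe40, a repressor of the circadian clock, rose to 42.7 ± 10.5 FPKM in Rtcb KO, against 23.0 ± 0.676 FPKM in WT (adjusted p = 0.00332). Sohlh2, a factor of early oocyte growth, had 3.16, 2.74 and 3.09 FPKM in Rtcb KO, against 8.87, 6.55 and 6.30 FPKM in WT (adjusted p = 0.00106). All 3 calls held with the factors removed. Neurog3 fell as deposited (11.1 ± 0.475 FPKM in Rtcb KO and 17.8 ± 2.02 FPKM in WT), a call that the factor-free scaling did not make (adjusted p = 0.610). Hes6 was at 87.6 ± 16.8 FPKM in Rtcb KO and 83.3 ± 5.65 FPKM in WT (adjusted p = 0.762), and was called higher with the factors removed (adjusted p = 0.0116). The third rise was that of Tcfl5 (adjusted p = 0.0411) and the fourth fall that of Bhlhe41 (0.0259), both named after their values were seen. Each call was lost without KO 1, KO 3, WT 1 or WT 2.

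Id genes are active in many somatic cell types, so markers of the cells around the oocyte were set beside them. All 15 oocyte markers had means of at least 10 FPKM. Of 24 granulosa and cumulus markers, 8 had a mean of at least 1 FPKM. Of these 1 rose and 2 fell as deposited (limma), beside 9.29% and 54.0% of all tested genes. With the factors removed 3 rose and 1 fell, beside 26.0% and 17.9%. The summed level of all 24 was 86.5 to 103 FPKM in Rtcb KO and 130 to 136 FPKM in WT as deposited, most of it from Bmpr1b, which oocytes express too, Cyp19a1 (17.5 to 22.2 FPKM in Rtcb KO, 35.6 to 39.8 FPKM in WT) and Nr5a2 (12.3 to 14.5 FPKM in Rtcb KO, 7.57 to 11.3 FPKM in WT). With the factors removed the sums overlapped, at 106 to 126 FPKM in Rtcb KO and 106 to 111 FPKM in WT, while the Id sum was 199 to 370 FPKM in Rtcb KO and 15.7 to 20.7 FPKM in WT. As deposited 4 of the 24 had every Rtcb KO library above every WT library (Nr5a2, Hsd3b1, Tnfaip6 and Npr2), and 4 had them below (Bmpr1b, Cyp19a1, Fshr and Ptgs2). Over all tested genes 10.2% lay above and 57.5% below in this way. Tnfaip6, Npr2, Fshr and Ptgs2 averaged under 1 FPKM and were not tested. Inha was at 10.7 ± 6.28 FPKM in Rtcb KO and 6.38 ± 2.55 FPKM in WT, with overlapping libraries (limma adjusted p = 0.216), and Hsd3b1 at 1.99 ± 1.72 FPKM in Rtcb KO and 0.501 ± 0.203 FPKM in WT (adjusted p = 0.0631). Fshr was at most 0.146 FPKM in Rtcb KO and 0.806 FPKM in WT, and Foxl2 at most 0.0763 FPKM in Rtcb KO and 0.0561 FPKM in WT.

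The 10 endothelial markers, of which 3 averaged 1 FPKM or more, summed to 22.4 to 24.0 FPKM in Rtcb KO and 36.7 to 55.9 FPKM in WT, mostly Pecam1, while Cdh5 and Emcn were listed at 0 throughout. None of 12 theca and stroma markers averaged 1 FPKM, and they summed to at most 1.05 FPKM in Rtcb KO and 2.12 FPKM in WT. The 10 blood and immune markers, of which 1 averaged 1 FPKM or more, summed to 1.35 to 9.22 FPKM in Rtcb KO and 3.13 to 5.74 FPKM in WT, the highest being KO 2 with 5.46 FPKM of Lyz2. Within the Rtcb KO group, KO 3 had the most Id1 and Id2. It also had the most Inha (17.8 FPKM, against 6.08 in KO 1 and 8.12 in KO 2), Hsd17b1 and Hsd3b1, all on the granulosa list. Other genes of that list ran differently. KO 1, with the most Id3, also had the most Cyp19a1 (22.2 FPKM, against 19.6 in KO 2 and 17.5 in KO 3), Nr5a2, Kitl and Cyp11a1, while Bmpr1b was nearly level. Without KO 3 the ratios of Id1 and Id2 were 2.65 and 6.78. The part of such cells in these values was not tested.

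**Figure D4:**
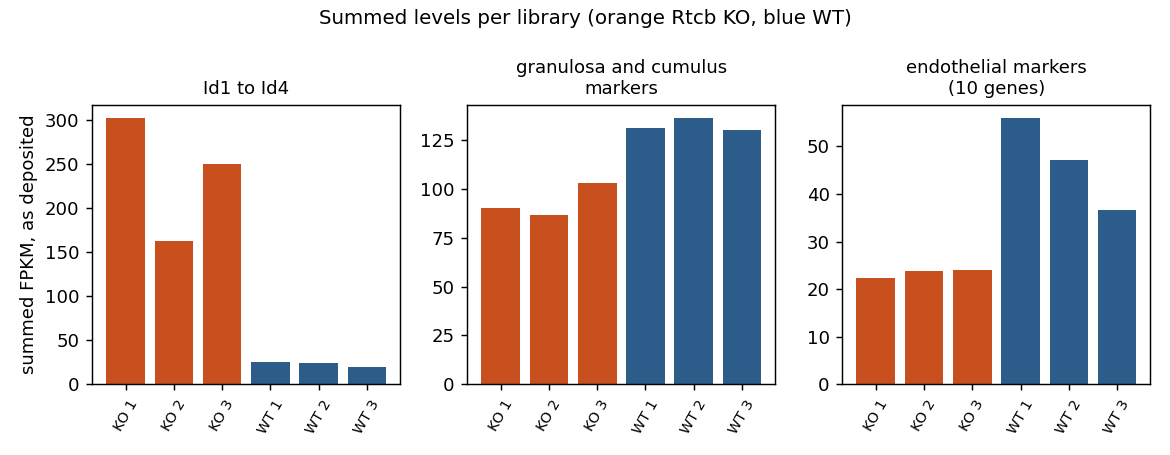
Summed FPKM as deposited (vertical axes, from 0) per library for Id1 to Id4 (left), 24 granulosa and cumulus markers (middle) and 10 endothelial markers (right), with Rtcb KO libraries in orange and WT libraries in blue. The Id sum is 162 to 302 FPKM in Rtcb KO and 19.2 to 25.3 FPKM in WT, while both marker sums are lower in every Rtcb KO library than in any WT library; with the genotype factors removed the granulosa sums overlap.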

How the data were processed

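Polyadenylated RNA of 10 pooled oocytes per library was turned into cDNA by Smart-seq2 with ERCC spike-ins and sequenced as 150 bp read pairs, per the labels' protocols. TopHat2 2.1.1, Cufflinks 2.2.1 and build mm9 are named in the submitters' processing notes. Each deposited value is a gene's FPKM after spike-in normalization by the authors, per the labels. The annotation, any filter and the origin of the spike-in factors were not given in the sources used here. Dividing by 2 (WT) and by 1.33 (Rtcb KO) returned 100% of values of at least 1 FPKM to 6 significant digits, against at most 76.8% for the next of 427 fractions tried, so each genotype carries its own factor, and the spread between replicates holds no error of that factor. Values with the factors removed were multiplied by the geometric mean of both, which keeps the overall scale.

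The 12029 genes averaging 1 FPKM or more entered limma 3.58.1 (R 4.3.3) as log2(FPKM + 1), in a two-sided test with an intensity trend and Benjamini-Hochberg adjustment over all of them, threshold 0.05. The step was tested on simulated data. Alternatives changed the pseudocount, filter, scaling, trend, block or libraries kept, and equal totals and median-ratio rescaling were computed on the deposited FPKM. Genes were named by rule: the 9 genes, then per list the 4 largest called changes with no overlap and a mean of at least 5 FPKM in the higher group, the 3 highest levels, and the 5 best correlates of the extreme members. Genes named outside this rule, such as Inha, Hsd3b1, Hsd17b1, Kitl, Cyp11a1, Fshr, Foxl2, Msx1 and Smad9, were named with their values known. The members, lists, motifs and tests were chosen with earlier results of these data known. Gene models came from GENCODE vM21 for 84.7% of tested genes and promoters from RefSeq, both on GRCm38. Read counts and depth are not part of the values used.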

Additional observations from a re-analysis of the deposited data

How the results depend on the processing

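The height of Id1, Id2, Id3 and Smad5 in Rtcb KO over WT held in direction under every alternative run: pseudocounts of 0.1 and 5, equal totals, median-ratio rescaling, the genotype factors removed, and each library left out. Of the 9 genes, 4 to 6 lay above and 2 to 3 below WT without overlap when single libraries were left out. Fewer libraries make a lack of overlap easier for any gene. The share of all tested genes was not counted there, so nothing is read from these counts. Below WT lay 1 with median-ratio rescaling and 0 with the factors removed, beside 28.6% and 24.5% of all tested genes. Reversals were Smad4 (0.35, 0.43 and 0.50 on the log2 scale with equal totals, median-ratio rescaling and the factors removed, -0.24 to 0.17 without single libraries, positive without WT 3), Smad7 (0.0030 and 0.0089 with the last 2 scalings, -0.088 to 0.00039 without single libraries, positive without WT 3) and Id4 (-0.0021 without WT 2, up to 0.15 without WT 3), all with values near 0 or overlapping groups. Smad2 also turned (0.31, 0.39 and 0.46 with the 3 scalings), as did Dand5 (0.045 and 0.11) and Ski (0.048 and 0.12) with median ratios and without factors, and Hes6 (-0.031 without KO 1, -0.028 without KO 3, up to 0.22 without KO 2).

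Over all tested genes 2305, 2768 and 3123 were called higher, and 3092, 2586 and 2149 lower, with equal totals, median ratios and the factors removed. With a mean of at least 10 FPKM 490 were higher, and without single libraries 769 to 1360 were higher and 5587 to 6234 lower. Pathway genes gave 16, 19 and 20 higher and 15, 12 and 10 lower with these 3 scalings, 3 higher from 10 FPKM up, and 5 to 11 higher and 27 to 29 lower without single libraries. The bHLH genes gave 7 higher and 1 lower under each of the 3 scalings, 5 higher with no intensity trend, 2 higher and 2 lower from 10 FPKM up, and 2 to 4 higher and 3 to 4 lower without single libraries. The 3 scalings change the ratio between the genotypes by construction, and the stricter filter tests fewer genes. Fitting the replicate number as a block gave 1108 higher and 6432 lower. Deviations of same-numbered libraries correlated at 0.14, -0.099 and 0.038, and those of differently numbered ones at -0.24 to 0.17. With 3 libraries per genotype this cannot decide whether the numbers pair the libraries. Depth is unknown, which limits what can be said of Id4, Smad6 and Smad7.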
